A study of Equus caballus with 4 samples.

Results

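The 8 genes TCP1, CCT2, CCT3, CCT4, CCT5, CCT6A, CCT7 and CCT8, which encode the subunits of the chaperonin CCT, were measured in differentiating equine satellite cells. Their probes were all gene probes of the array whose annotated gene name was exactly 1 of these symbols. This gave 10 of 43603 gene probes, for 8 of 24925 gene names, which include probe names where no gene symbol was given. CCT2 and CCT3 had 2 probes each, and the other 6 genes had 1.

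CCT, also called TRiC, is a barrel of a pair of stacked rings in the cytosol, and each ring holds every one of the subunits once. New polypeptides enter the chamber, which opens and closes with ATP hydrolysis, and leave it folded. Actin and tubulin are its best known clients, so the complex serves the cytoskeleton that dividing cells and differentiating muscle cells build. The prefoldin complex hands nascent actin and tubulin to it, and phosducin-like proteins bind it as cofactors.

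The cells came from the m. semitendinosus of young horses, and the study chose a single primary cell line for culture. On day 3 of differentiation, the cells labelled GO_H2O2 had spent 24 h in 0.125 µM gamma-oryzanol (GO), ferulic acid esters of plant sterols found in rice bran oil, and 3 mM hydrogen peroxide (H2O2) was present in the final 1 h. Control cells were kept without GO. Whether they too received H2O2 is not in their labels; in the study's description they did, and their medium held the vehicle of GO (DMSO). Both groups were taken from the same day of differentiation. The 4 arrays (n = 4, biological replicates 1 to 4 in the labels) carried labelled RNA of GO-pre-treated cells in the red channel (Cy5) and of control cells in the green channel (Cy3). They lay on 1 slide, and no array had the dyes swapped, so dye and treatment cannot be told apart. Between 54.9% and 61.4% of gene spots were well above background in a channel of an array, and the number of arrays limits the precision. In bulk RNA, fewer cells of a type and less RNA per cell cannot be told apart.

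Of the muscle markers, MYF5, MYOD1, MYOG, DES and NCAM1 were above background on every array, and 3 others had no probe of that name. By the test given below, 9.49% of all tested probes were called higher and 7.59% lower. Of 14 muscle probes, 3 were higher and 0 lower: both of MYOG, a transcription factor of muscle differentiation, and 1 of NCAM1. MYOG had a gene mean log2 ratio of 0.41 (adjusted p = 0.0201 by limma). All 15 probes of 4 endothelial genes and 7 of 8 adipocyte probes were not well above background in either channel on any array. Fibroblast genes were measurable, with 6 of 18 tested probes lower, all of LUM, and 1 of THY1 higher, and of the leucocyte genes 1 of 2 probes, that of CD14, was lower. Their part in the values below was not tested.

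A log2 ratio below 0 means a lower signal in GO-pre-treated cells after normalisation within the array. By the study's description, both groups received H2O2. Limma was used, with p adjusted over all 24229 probes tested and a threshold of 0.05. With it, 4 of the 10 CCT probes were lower in GO-pre-treated cells and 0 were higher. These were the probes of CCT4, CCT5 and CCT7 and 1 of the 2 probes of CCT2. Over all tested probes, 7.59% were called lower and 9.49% higher. The decreases were small: the mean log2 ratios of the 4 probes lay between −0.24 and −0.30, and 0 CCT probes reached a fold change of 1.3, the limit stated in the methods, against 345 of all probes past the threshold. The gene list of the study was drawn with a lower limit. All 10 CCT probes had a negative mean, with a median of −0.17 beside 0.003 over all tested probes. Each was well above background in both channels on all 4 arrays, and none was saturated, so all 10 members were tested.

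**Figure D1:**
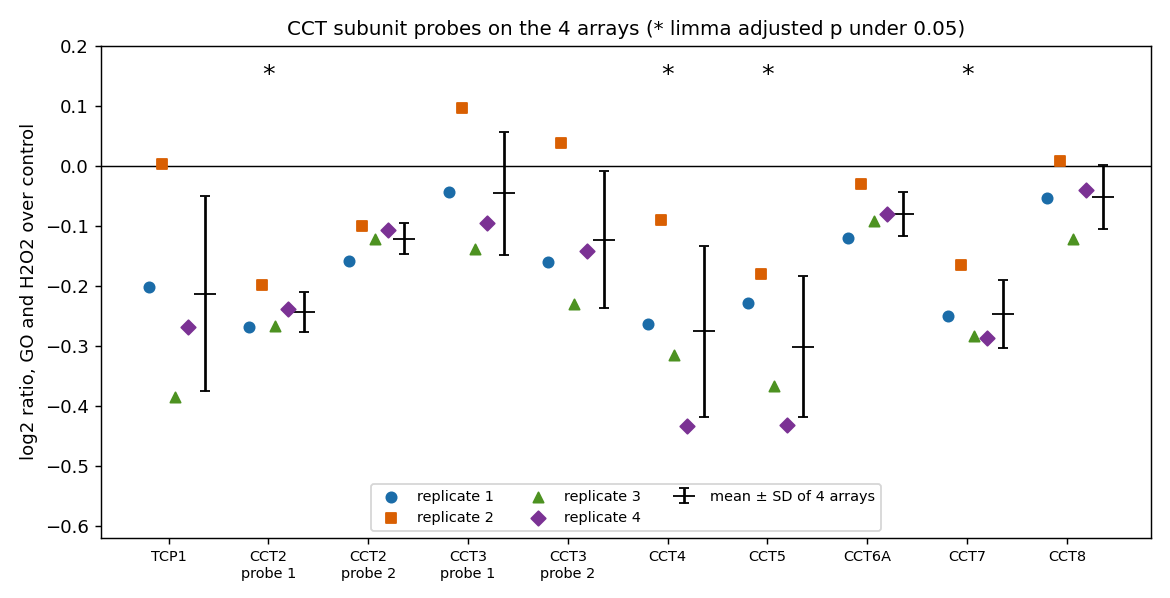
The log2 ratio (GO and H2O2 over control, vertical axis) of each CCT probe is plotted on each of the 4 arrays, with the mean ± SD (n = 4) in black and a star over the 4 probes with an adjusted p under 0.05. The square of replicate 2 is the highest of the 4 values for all 10 probes, and the 4 values of the starred probes are all below 0.

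CCT5, the epsilon subunit, had the lowest mean. Its probe lay on the minus strand at chr21:45189489-45189548 (EquCab1, the build named in the file headers). The letters of this probe are shown because they place it: read from the first base they run into a stop codon, given in capitals, 3 bases before the end of the probe.
CCT5: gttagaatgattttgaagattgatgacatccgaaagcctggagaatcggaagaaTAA
The scanned red intensity, from GO-pre-treated cells, was 28817, 27328, 18488 and 19438 on replicates 1 to 4. The green intensity, from control cells, was 25176, 21551, 18440 and 20883. Before normalisation the red signal therefore exceeded the green on replicates 1 to 3 and was below it on replicate 4. After normalisation the log2 ratio was −0.23, −0.18, −0.37 and −0.43, below 0 on each array. The mean log2 ratio was −0.30 ± 0.12 (SD, n = 4), so that the signal decreased by 18.9%, with an adjusted p of 0.0216 by limma.

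CCT4, the delta subunit, followed. Its probe lay at chr15:36029207-36029266 on the plus strand, and its first 30 bases identify it.
CCT4: ctatgaattcttggggcctggtcttccagt
Red intensities were 47947, 48370, 33614 and 38795 on replicates 1 to 4, and green intensities were 41482, 34770, 31681 and 39984. The log2 ratios were −0.26, −0.09, −0.32 and −0.43. Replicate 2 lay closest to 0 and replicate 4 furthest from it. These log2 ratios averaged −0.28 ± 0.14 (SD, n = 4), with an adjusted p of 0.0315 by limma.

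The gene of CCT7, the eta subunit, was read by a minus-strand probe at chr15:26342784-26342843. This probe started at base 812 of its transcript, while the probes of the other subunits started between bases 1516 and 2003. It is shown whole because 1 of its reading frames has no stop codon.
CCT7: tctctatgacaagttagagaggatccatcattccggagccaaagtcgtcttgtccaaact
Red intensities were 2689, 2565, 1855 and 1966 and green intensities 2728, 2262, 1860 and 2138 on replicates 1 to 4. The log2 ratio after normalisation was −0.25, −0.17, −0.28 and −0.29. These 4 values lay close together, and the mean log2 ratio was −0.25 ± 0.06 (SD, n = 4, adjusted p = 0.0196 by limma).

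CCT2, the beta subunit, was read by a pair of neighbouring probes on the plus strand, at chr6:81478423-81478482 and chr6:81478357-81478416, with 6 bases between them. The first 30 bases of each are shown, since only the first passed the test.
CCT2, first probe: tttgctgttttattttccatgaaattcggt
CCT2, second probe: tgtggctgttatatccttaagtttggacat
On the first probe, red intensities were 31221, 28861, 18355 and 22988 on replicates 1 to 4, and green intensities were 27889, 22979, 17105 and 21465. Its log2 ratio was −0.27, −0.20, −0.27 and −0.24, with a mean of −0.24 ± 0.03 (SD, n = 4, adjusted p = 0.0182 by limma). The second probe was below 0 on every array too, but closer to it. Its red intensities were 47959, 44490, 34542 and 42648, and its green intensities were 38648, 32357, 28525 and 35081. The log2 ratios of the second probe were −0.16, −0.10, −0.12 and −0.11, with a mean of −0.12 ± 0.03 (SD, n = 4) and an adjusted p of 0.0666 by limma. The first probe was lower than the second on each array, by differences in log2 ratio of −0.11, −0.10, −0.14 and −0.13. Both probes were bright and had the same sign, and they differed in size.

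The other 4 subunits did not pass the threshold. TCP1, the alpha subunit after which the complex was first named, lay at chr31:8459506-8459565 on the plus strand. Its red intensities were 36263, 38663, 24177 and 29004 on replicates 1 to 4, and its green intensities were 30663, 26446, 24175 and 27225. The log2 ratios of TCP1 were −0.20, 0.00, −0.38 and −0.27. Replicate 2 stood at 0 and the other arrays were clearly below it. The mean log2 ratio of TCP1 was −0.21 ± 0.16 (SD, n = 4, adjusted p = 0.0669 by limma). Without replicate 2, the mean was −0.28 and the adjusted p was 0.0253 by limma. Without replicate 1, 3 or 4 the adjusted p of TCP1 was 0.176, 0.177 and 0.201.

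CCT3, the gamma subunit, had probes at 84579887-84579946 and 84579907-84579966 on the minus strand of sequence not assigned to a chromosome (Un). The probes shared 40 of their 60 bases and are not independent readings. On the first, red intensities were 32467, 29323, 19988 and 28145 on replicates 1 to 4, and green intensities were 24865, 19124, 17017 and 23571. Its log2 ratios were −0.04, 0.10, −0.14 and −0.10, with a mean of −0.05 ± 0.10 (SD, n = 4, adjusted p = 0.543 by limma). The sign of replicate 2 was opposite to that of the other arrays. On the second probe of CCT3, red intensities were 44955, 41281, 28662 and 30203 and green intensities 36430, 27463, 25634 and 25971. Its log2 ratios were −0.16, 0.04, −0.23 and −0.14, with a mean of −0.12 ± 0.11 (SD, n = 4, adjusted p = 0.143 by limma). Here too replicate 2 alone was above 0.

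The zeta subunit gene CCT6A was read by a plus-strand probe at chr13:425642-425701. Red intensities were 3157, 3066, 2784 and 2801 on replicates 1 to 4, and green intensities were 2923, 2452, 2433 and 2620. The log2 ratios of CCT6A were −0.12, −0.03, −0.09 and −0.08, and their mean was −0.08 ± 0.04 (SD, n = 4, adjusted p = 0.179 by limma). The sign was the same on all arrays, and the 95% interval of the mean log2 ratio ran from −0.17 to 0.01. CCT8, the theta subunit, lay at chr26:15689153-15689212 on the plus strand. Its red intensities were 18616, 17583, 11063 and 15414, and its green intensities were 14894, 12533, 9534 and 12921. CCT8 log2 ratios were −0.05, 0.01, −0.12 and −0.04 on replicates 1 to 4. The mean log2 ratio of −0.05 ± 0.05 (SD, n = 4, adjusted p = 0.393 by limma) was among the closest to 0 of the subunits, with a 95% interval from −0.15 to 0.05.

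CCT6A has a paralogue, CCT6B, a form of the zeta subunit known from testis. Its probe lay within chr11:36742111-36742689, a span of 579 bases in the annotation. Both probes are shown, with the 8 differing bases of their 36 aligned bases in capitals. Within that stretch 28 bases, or 77.8%, were identical.
CCT6A: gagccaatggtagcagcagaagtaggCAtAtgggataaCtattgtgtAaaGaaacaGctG
CCT6B: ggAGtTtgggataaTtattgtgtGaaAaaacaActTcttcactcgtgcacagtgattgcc
The CCT6B probe was not well above background in either channel on any array. No CCT probe shared a run of 20 bases with any other gene probe of the array, apart from the overlapping pair of CCT3.

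**Figure D2:**
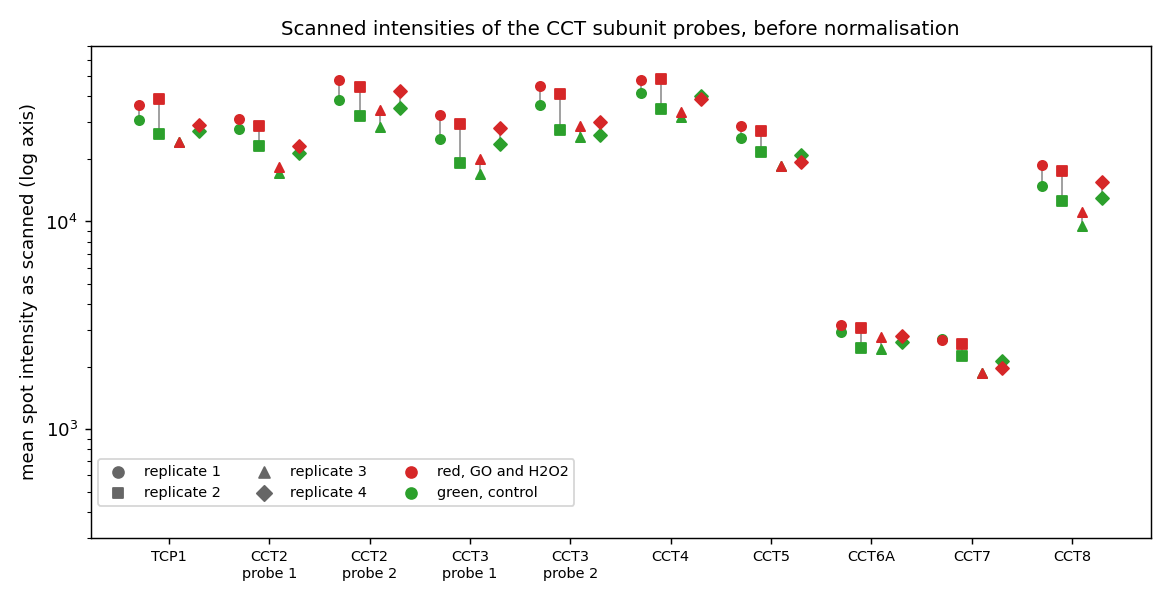
Scanned mean spot intensities (log axis, before background correction and normalisation) of each CCT probe are plotted for the red channel (GO and H2O2) and the green channel (control), with a marker shape for each of the 4 arrays and a line joining the channels of an array. In most spots the red point lies above the green, as for TCP1 on replicate 2 with 38663 against 26446.

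The sign of the CCT ratios depended on the normalisation. After background correction and before loess normalisation, all 10 probes had more red than green signal on replicates 1, 2 and 3, and 7 of 10 on replicate 4. The loess curve removes the trend of red over green with signal level, whether it comes from dye or treatment. It subtracted 0.27 to 0.47 from the log2 ratio of the CCT probes on replicate 1 and 0.36 to 0.57 on replicate 2. On replicate 3 it subtracted 0.32 to 0.40, and on replicate 4 it subtracted 0.18 to 0.39. Over all tested probes the median subtraction was 0.37, 0.28, 0.39 and 0.13. With each array centred on its median in place of loess, 6 of the 10 CCT probes had a negative mean, 0 passed the threshold and the median over the CCT probes was −0.09. With that centring only 12 of all tested probes passed, 0 of them lower, against 44.4% lower calls among the 4137 with loess.

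Over genes, with the probes of a gene averaged and p adjusted over 13628 gene names, 4 of 8 were lower and 0 higher. Of all gene names, 7.26% were called lower and 10.2% higher. These names include probes without a gene symbol, each counted under the name the annotation gave it. CCT2 had a gene mean log2 ratio of −0.18 ± 0.03 (SD, n = 4, adjusted p = 0.0248 by limma), and that of CCT3 was −0.08 ± 0.11 (SD, n = 4, adjusted p = 0.263 by limma). The order of mean log2 ratios, from the lowest, was CCT5, CCT4, CCT7, TCP1, CCT2, CCT3, CCT6A and CCT8. The ranges over 4 arrays of any neighbours in this order overlapped. Among the 28 pairs of subunits, 6 had ranges that did not overlap. CCT5, CCT7 and CCT2 each lay below CCT6A and below CCT8 on all arrays in this way. The range comparison ignores that subunits are read on the same arrays. Within each array CCT4 was below CCT6A and CCT8 too, although the ranges overlapped. These differences in log2 ratio ran from −0.35 to −0.06 against CCT6A and from −0.39 to −0.10 against CCT8. In the known order of the ring, CCT7, CCT5, CCT2 and CCT4, the genes called lower, are consecutive, followed by TCP1, while CCT3, CCT6A and CCT8 complete the circle. The run rests on the call of CCT2, which did not pass on its brightest probe (adjusted p = 0.0666 by limma). This arrangement was noticed after the values were seen and was not tested.

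Replicate 2 differed from the other arrays in a common way across the subunits. Over the CCT genes, the medians of replicates 1 to 4 were −0.21, −0.06, −0.24 and −0.22 as log2 ratios, while that over all tested gene names was between −0.0041 and 0.0110. All 10 probes were below 0 on replicates 1, 3 and 4, and 6 of 10 on replicate 2. Replicate 2 had the highest of the 4 values for each of the 10 probes, whereas it was the highest for 27.9% of all tested probes. The lowest array was not shared: it was replicate 1 for 3 probes, replicate 3 for 4 and replicate 4 for 3. The same 6 of 10 CCT probes, or 60%, were below 0 on all 4 arrays, beside 21.2% of all tested probes. These were both CCT2 probes and those of CCT4, CCT5, CCT6A and CCT7.

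The medians of proliferation genes ranked the arrays in the same order as the CCT medians. The CCT medians of replicates 1, 3 and 4 lay close together, at −0.21, −0.24 and −0.22. For 13 proliferation genes the median log2 ratios were −0.23, 0.35, −0.47 and −0.33, and with all arrays 0 of their 27 probes passed the threshold. CDK1, the kinase that drives entry into mitosis, had log2 ratios of −0.42, 0.40, −0.92 and −0.78 (adjusted p = 0.174 by limma). RRM2, a subunit of the ribonucleotide reductase that supplies deoxynucleotides, had −0.37, 0.21, −0.96 and −0.48 (adjusted p = 0.134 by limma). BUB1, a kinase of the spindle checkpoint, had −0.32, 0.43, −0.91 and −0.76 (adjusted p = 0.211 by limma). Without replicate 2 the mean log2 ratio of CDK1 was −0.71 (adjusted p = 0.0135 by limma). That of RRM2 was then −0.60 (adjusted p = 0.0227) and that of BUB1 −0.66 (adjusted p = 0.0189), so each passed the threshold. Without replicate 1, 3 or 4 CDK1, RRM2 and BUB1 did not pass, with adjusted p of 0.326, 0.427 and 0.438 for CDK1. On replicate 2 these genes were above 0 while the CCT median stayed just below it. Their part in the CCT values was not tested.

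**Figure D3:**
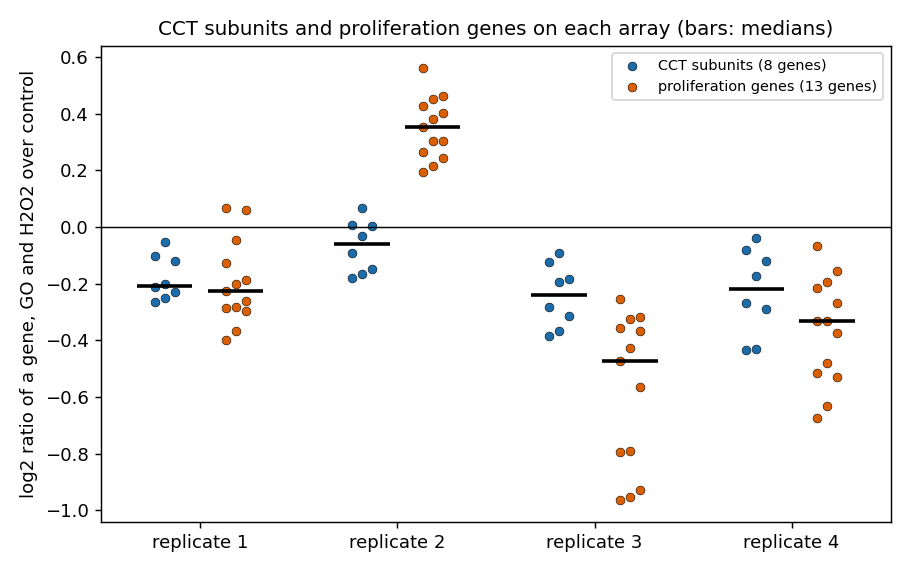
Log2 ratios (GO and H2O2 over control, vertical axis) of the 8 CCT genes and of 13 proliferation genes are plotted on each array, with a point per gene and a bar at the median. Both lists are highest on replicate 2, with medians of −0.06 and 0.35, and the CCT points spread less than the proliferation points on each array.

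Partners that deliver clients to CCT were examined next. Probe counts of these and the following lists stand beside 7.59% called lower and 9.49% called higher over all tested probes. Prefoldin is a hexamer that captures nascent chains, and all 6 of its genes were measured, with 3 of 8 probes lower and 1 higher. VBP1, also known as PFDN3, had log2 ratios of −0.30, −0.25, −0.46 and −0.18 on replicates 1 to 4, with a mean of −0.30 ± 0.12 (SD, n = 4, adjusted p = 0.0228 by limma). PFDN4 had −0.22, −0.13, −0.27 and −0.17, with a mean of −0.20 ± 0.06 (SD, n = 4, adjusted p = 0.0296 by limma). Both were below 0 on all arrays. PFDN5 (−0.13, adjusted p = 0.0784 by limma), PFDN2 (−0.10, adjusted p = 0.140) and PFDN1 (−0.09, adjusted p = 0.267) had negative mean log2 ratios that did not pass. PFDN6 was higher, with log2 ratios of 1.33, 1.08, 0.89 and 0.02, a mean of 0.83 ± 0.57 (SD, n = 4) and an adjusted p of 0.0370 by limma. Replicate 4 was the lowest, and without it the mean log2 ratio was 1.099 (adjusted p = 0.0525 by limma). Without replicate 1, 2 or 3 the adjusted p of PFDN6 was 0.127, 0.0577 and 0.0974, so leaving out any array lost the call. Without replicate 1, 3 or 4 this loss was general, with 2, 38 and 0 calls over all tested probes. Without replicate 2 there were 3898. With Agilent's processed signals the adjusted p of PFDN6 was 0.0635, and with limma's trend and robust estimation it was 0.0845.

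Among the phosducin-like cofactors, 3 of 4 tested probes were lower and 1 higher. TXNDC9, also called PhLP3, a modulator of CCT in tubulin and actin folding, had log2 ratios of −0.36, −0.37, −0.41 and −0.33. This close set gave a mean of −0.37 ± 0.03 (SD, n = 4, adjusted p = 0.0119 by limma). PDCL3, known as PhLP2A, had −0.14, −0.19, −0.16 and −0.23, with a mean log2 ratio of −0.18 ± 0.04 (SD, n = 4, adjusted p = 0.0317 by limma, and 0.0504 with Agilent's processed signals). PDCL, or PhLP1, which acts with CCT in the assembly of G protein beta and gamma subunits, was well above background in the red channel only. It entered the test through that channel alone, where it was higher, so its call is not independent of the filter. With the filter on both channels PDCL was not tested. Its plain ratio was 1.14-fold (adjusted p = 0.0401 by limma), over a control signal not well above background on any array. The bound, counted on each array against the higher of its own control signal and the lowest control signal above background, was 1.13-fold. Such a bound is open to dye bias, and it was computed from the loess values. With a running median over signal subtracted, the log2 ratio of PDCL was 0.06 (adjusted p = 0.347 by limma), and with Agilent's processed signals it was 0.80 (adjusted p = 0.0449). The call was also lost without replicate 2 (adjusted p = 0.0801). PDCL2 was not well above background in either channel on any array.

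Actin and tubulin, the main clients, were examined next. Of 9 actin probes for 5 genes, 0 were lower and 2 higher, beside 7.59% lower and 9.49% higher over all tested probes. ACTC1, cardiac alpha actin, which is also made in early muscle, had log2 ratios of 0.50, 0.35, 0.48 and 0.42 on replicates 1 to 4, with a mean of 0.44 ± 0.07 (SD, n = 4, adjusted p = 0.0114 by limma). ACTB, cytoplasmic beta actin, had 0.46, 0.27, 0.58 and 0.48, with a mean of 0.45 ± 0.13 (SD, n = 4, adjusted p = 0.0149 by limma). ACTA1, skeletal alpha actin, was above 0 on all arrays, with 0.43, 0.06, 0.32 and 0.11 and a mean of 0.23 ± 0.17 (SD, n = 4, adjusted p = 0.0613 by limma). With a running median over signal subtracted, the log2 ratio of ACTC1 was 0.10 (adjusted p = 0.208 by limma) and that of ACTB 0.22 (adjusted p = 0.0360).

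Tubulin genes had no call in either direction among 10 probes of 4 genes, and 7 listed tubulins had no probe of that name. TUBA1C, an alpha tubulin, had log2 ratios of −0.05, 0.45, −0.37 and −0.20, and TUBB2B, a beta tubulin, had 0.36, 0.28, 0.16 and −0.05. Both changed sign between arrays. TUBA4A had a mean of −0.01 ± 0.10 (SD, n = 4). Of 10 probes of 6 other clients, 0 passed. Their means included 0.12 for GNB1, a G protein beta subunit, −0.14 for CCNE1, cyclin E1, and 0.05 for PPP2R2A, a regulatory subunit of protein phosphatase 2A, all as log2 ratios. Of 5 probes of tubulin folding cofactors, which take tubulin on from CCT, 1 was higher. This was TBCB, with log2 ratios of 0.45, 0.28, 0.45 and 0.43 and a mean of 0.40 ± 0.08 (SD, n = 4, adjusted p = 0.0129 by limma). TBCE (−0.15, adjusted p = 0.0536 by limma) and TBCC (−0.09, adjusted p = 0.193) did not pass, although TBCE did when its probes were averaged (−0.15, adjusted p = 0.0482).

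The cytosolic HSP70 and HSP90 system works upstream of and beside CCT. Of its 36 probes for 11 genes, 10 were lower and 0 higher, beside 7.59% lower and 9.49% higher over all tested probes. Some of the 10 were probes of the same gene, as for ST13, PTGES3 and HSPA8. The median gene had a log2 ratio of −0.10. HSP90AA1, the inducible HSP90, had log2 ratios of −0.30, −0.27, −0.25 and −0.31 on replicates 1 to 4, with a mean of −0.28 ± 0.03 (SD, n = 4, adjusted p = 0.0153 by limma). HSPH1, a nucleotide exchange factor of HSP70, had −0.26, −0.23, −0.22 and −0.16 (mean −0.22 ± 0.04, SD, n = 4, adjusted p = 0.0220 by limma). For neither was replicate 2 the highest array. HSPA4, a relative of HSPH1, had a mean log2 ratio of −0.14 on its brightest probe (adjusted p = 0.0548 by limma) and of −0.08 over its probes (adjusted p = 0.160). As gene means, HSP90AA1, HSPH1 and PTGES3 were the 3 called lower. PTGES3, the HSP90 cochaperone p23, was outside the naming rule and had a gene mean log2 ratio of −0.21 (adjusted p = 0.0248 by limma), with −0.01 on its brightest probe. Unlike HSP90AA1 and HSPH1, PTGES3 was highest on replicate 2, with gene values of −0.27, −0.15, −0.16 and −0.25 on replicates 1 to 4. HSF2, a heat shock transcription factor, had a mean log2 ratio of 0.05 (adjusted p = 0.403 by limma), and 0 of its 7 probes passed.

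Among relatives of CCT, 1 of 8 tested probes was lower and 0 were higher, beside 7.59% and 9.49% over all tested probes. It was a probe of HSPD1, the mitochondrial chaperonin, with log2 ratios of −0.20, −0.25, −0.06 and −0.24 (adjusted p = 0.0431 by limma), while the mean over the probes of HSPD1 was −0.08 (adjusted p = 0.297). The call of the HSPD1 probe was lost with Agilent's processed signals (adjusted p = 0.0915 by limma), normexp with offset 0 (0.0563), the running median (0.101) and without replicate 2 (0.0856). MKKS and BBS10, chaperonin-like proteins known from Bardet-Biedl syndrome, had mean log2 ratios of −0.12 (adjusted p = 0.106 by limma) and 0.14 (adjusted p = 0.0864). BBS10 was above background in the green channel on 1 array only.

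**Figure D4:**
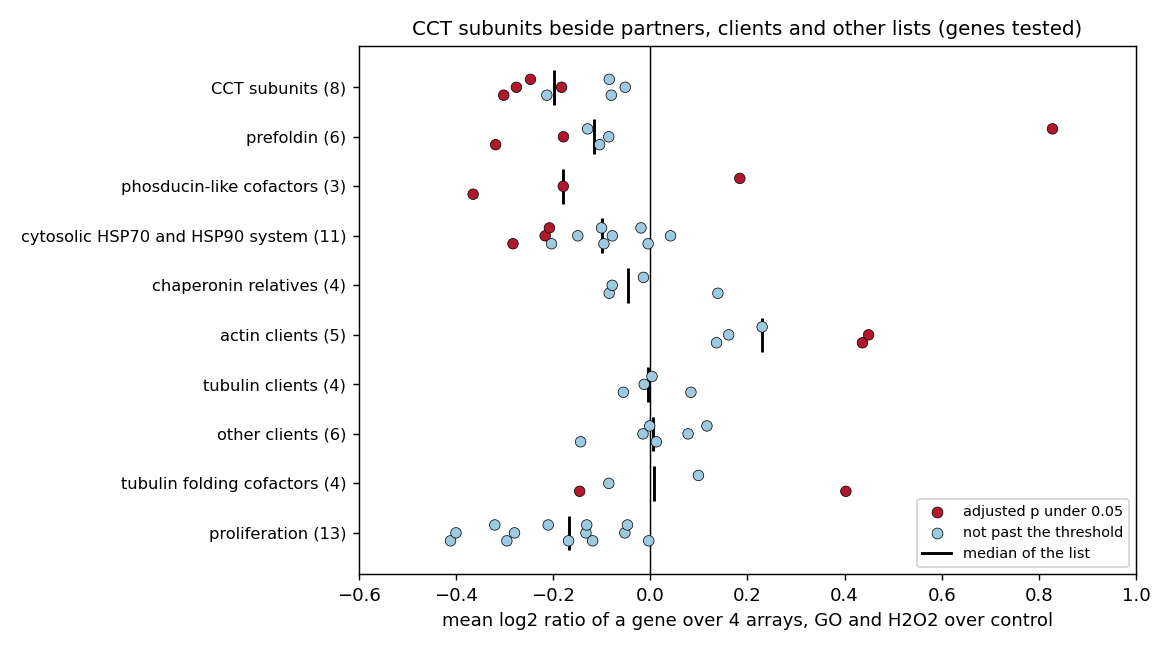
The mean log2 ratio over 4 arrays (horizontal axis) is plotted for each tested gene of the CCT subunits and 9 other lists, with the number of genes in parentheses, red points for an adjusted p under 0.05 over all gene names, and a black bar at the median of a list. All 8 CCT points and all 13 proliferation points lie below 0 and all 5 actin points above it, with medians of −0.20, −0.17 and 0.23.

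The genes outside the list whose 4 log2 ratios lay closest to the CCT median were sought among the 8600 other tested names that are gene symbols, by Euclidean distance over the 4 arrays. They were RABL3 (distance 0.0381), PLA2G4A (0.0414) and XRCC6BP1 (0.0415). RABL3 had log2 ratios of −0.18, −0.07, −0.24 and −0.25 on replicates 1 to 4. The CCT genes themselves lay further from their own median, from 0.110 for CCT2 to 0.276 for CCT5. Since the outside genes were picked as the closest of 8600 names, this comparison does not measure how alike the subunits are.

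The calls also depended on single arrays, as did those over all probes. Without replicate 1, 3 or 4, 0 CCT probes passed, and 2, 38 and 0 of all tested probes did, although the means of all 10 CCT probes stayed negative. Without replicate 4, 5 of the 10 CCT probes had an unadjusted limma p under 0.05, as had 6694 of all probes. Without replicate 2, 5 CCT probes passed, TCP1 added.

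**Figure D5:**
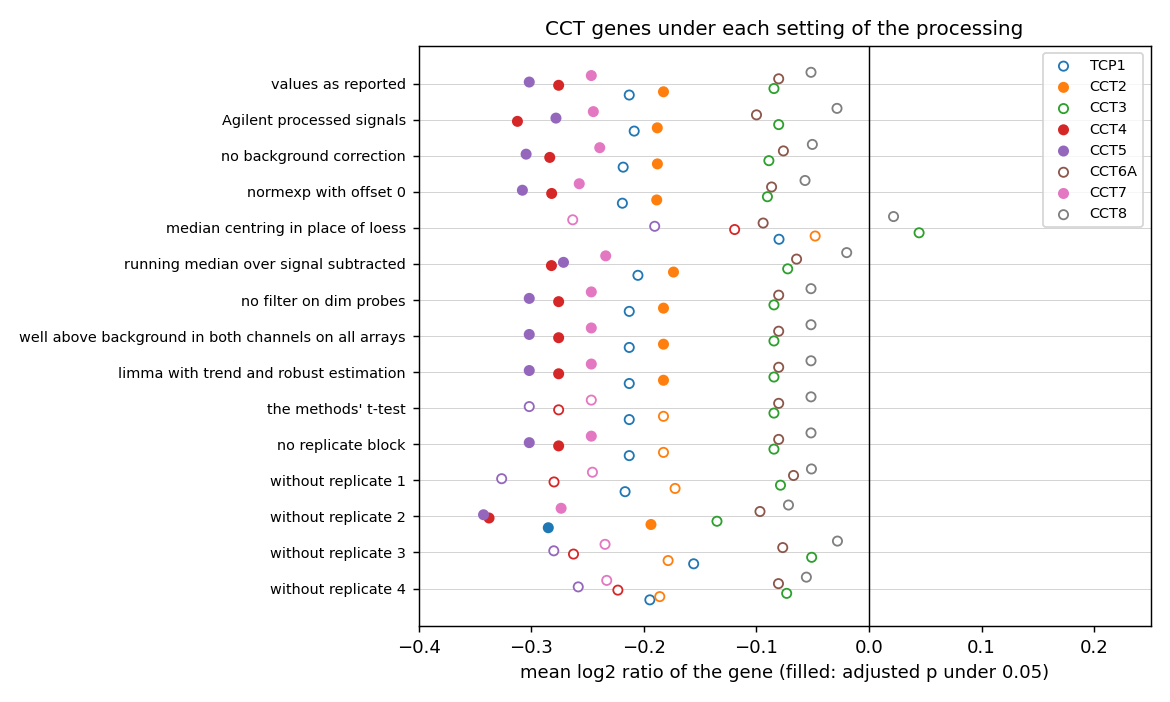
The mean log2 ratio of each CCT gene (horizontal axis) is plotted for the values as reported and for each alternative processing other than the series matrix values and the brightest probe, with a filled point where the adjusted p is under 0.05. CCT2, CCT4, CCT5 and CCT7 are filled in the values as reported, CCT3 and CCT8 move above 0 with median centring (0.04 and 0.02), and no point is filled with median centring, with the methods' t-test or without replicate 1, 3 or 4.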

How the data were processed

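The deposited scanner files held spot intensities of 4 two-colour Agilent horse arrays, which the authors extracted with Feature Extraction 10.10.1.1, and coordinates were those of EquCab1, per the file headers. Deposited log10 ratios, of processed red over green, equalled the series matrix (largest difference 0). Mean intensities were corrected with normexp (offset 50) and normalised by loess, control spots having weight 0, in limma 3.58.1 (R 4.3.3). Outlier spots were left out and spots of a probe averaged. A probe was tested when all 4 arrays had it well above background in the red or all 4 in the green channel. The mean log2 ratio, red over green, was tested against 0 with lmFit and eBayes, two-sided, with Benjamini-Hochberg adjustment over all tested probes and a threshold of 0.05. The fit was tested on simulated data. Errors are SDs. The labels call the arrays biological replicates, and the study chose a single cell line, so p-values measure the spread between cultures of that line.

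Named genes were all CCT genes, every prefoldin and phosducin-like gene, and from the other lists the 3 members with the smallest adjusted p of their brightest tested probe, whose values are given. The members and lists were chosen with earlier results of these data known. Names were those of the array annotation, and 427 probes without one were named through a RefSeq table. Exons and UTRs were not assigned, since no EquCab1 annotation was used.

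Tried as alternatives were no background correction, normexp with offset 0, the signals as processed by Agilent's software, median centring, a running median over 501 probes, series matrix values, no filter, a filter on both channels, limma with trend and robust estimation, the methods' t-test, no replicate block, the brightest probe of a gene, and leaving out each array.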

Additional observations from a re-analysis of the deposited data

Results flagged for a closer look

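Of 41 sets of 4 array values, 1 held a value set apart from the other 3 by more than Dixon's limit of 0.829, and chance alone gives such a value in about 1 in 20 sets. It was the log2 ratio of 0.277 of TBCB, a tubulin folding cofactor, on replicate 2, where the other arrays lay between 0.427 and 0.454.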

How the results depend on the processing

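With loess or Agilent's own normalisation and 4 arrays in a limma fit of ratios, 4 CCT probes were called lower under every alternative and 0 higher, with 3402 to 5298 calls over all probes. With median centring, 0 CCT probes and 12 of all probes were called, and the log2 ratio turned positive for the second CCT2 probe (0.0311), both CCT3 probes (0.0723 and 0.0167), CCT8 (0.0218) and the CCT3 gene mean (0.0445). TUBA1C was then 0.16. The methods' t-test called 0 CCT probes and 5 of all probes after adjustment (6 and 6930 at an unadjusted p under 0.05). Each array holds both groups, so the array pairs them: with no replicate block, 2 CCT probes and 594 of all probes were called, and CCT2 (adjusted p = 0.0920 by limma) and CCT4 (0.0581) were not. Leaving out each array gave 0 to 5 CCT probes called lower, 0 to 0 higher and 0 to 3898 of all probes. TUBA1C then ranged from −0.2054 to 0.07 and TUBA4A from −0.0502 to 0.0196. With the brightest probe, the CCT2 gene value was −0.12 (adjusted p = 0.0666 by limma). List counts moved too: the HSP70 and HSP90 probes called lower were 5 with normexp offset 0 and 4 without replicate 2, and prefoldin probes called lower were 5 with Agilent's processed signals. The cause was not tested. All CCT probes were well above background in both channels on the 4 arrays.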
